A study of Mus musculus with 38 samples.

Results

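The nuclear genes for the subunits of oxidative phosphorylation were followed through mouse kidney tumours, cell lines made from such tumours, and normal kidney. Members were taken by symbol, as the genes named Nduf with a subunit letter and number, Sdha to Sdhd, Uqcr, Cox4 to Cox8 and Atp5, without rows named as pseudogenes. The rule found 85 of the 21705 genes in the table. Of these, 81 encode known subunits, 35 of complex I, 4 of complex II, 8 of complex III, 19 of complex IV and 15 of complex V. The other 4 match only by name: Cox4nb is a subunit of an endoplasmic reticulum membrane complex, Atp5s and Atp5sl are not part of the ATP synthase, and Cox7a2l helps to join respiratory complexes into larger assemblies. No row of the table carries the prefix of a gene encoded by mitochondrial DNA, so the subunits made inside the mitochondrion are not analysed here.

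Oxidative phosphorylation takes electrons from NADH at complex I and from succinate at complex II, passes them through complex III to oxygen at complex IV, and uses the proton gradient this builds to make ATP at complex V. Each complex except II joins subunits encoded in the nucleus with subunits encoded in mitochondrial DNA. Proximal tubule cells of the kidney are rich in mitochondria, and loss of VHL, which stabilises hypoxia-inducible factors (HIF), is known to shift renal tumour cells away from respiration. MYC is a transcription factor known to act on genes of mitochondrial biogenesis.

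The 38 RNAseq libraries fall into 10 groups. Cells carrying a doxycycline (Dox)-inducible MYC transgene came from a MYC+ tumour (line MYC-2983), from a Vhl-/-; MYC + tumour (VM-3055) and from a tumour of that genotype which was also Ink-/-/Arf-/- (VIM-3039). Each line has 4 libraries with Dox and 4 without, taken a day after plating. Each genotype also has 3 tumour libraries from mice kept on Dox, called MYC, VM and VIM tumours, and normal kidney has 5 libraries from wild type mice given vehicle, 2 with the title prefix B6 (libraries 1 and 3) and 3 with the prefix KT, whose meaning the labels do not state. In the mice a kidney-specific cadherin promoter drives both the recombinase that deletes Vhl and the activator of the MYC transgene, and the loss of Ink4a/Arf is germline. Each cell line is the progeny of 1 tumour. MYC tumour libraries 2 and 3 carry the same mouse number, so they were averaged in the tests, where the MYC tumours count as 2 mice. Group means of levels and shares in the text count all 3 MYC tumour libraries. Nothing states that the 4 libraries of a cell group came from separate cultures, so their p-values measure only the spread between these libraries. No Dox-treated cells without the transgene were analysed here, and Dox itself, a tetracycline known to act on mitochondrial translation, cannot be told apart from the transgene.

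Values are RSEM estimates to which the authors applied upper quartile normalization with a target of 1000, and are called units here. The libraries hold an estimated 8.22 to 36.6 M reads (median 15.2 M), and the level that 3 reads would give, 1.16 to 5.65 units, served as the floor of detection. Vhl read 612 to 772 units in normal kidney, 433 to 543 in MYC-2983 cells, 8.3 to 38.8 in VM-3055 and VIM-3039 cells, 40 to 80 in VM tumours and 219 to 312 in VIM tumours. The Myc row was lower with Dox in each line (338 to 413 against 1308 to 1406 units in VM-3055 cells), and whether it takes reads of the transgene is not given in the sources used here. The summed level of 10 proximal tubule markers was 636200 to 1641000 units in normal kidney and 7561 to 59650 in the tumours. In the cell libraries it was 3157 to 7484 units, and 4 to 7 of the 10 were at 0 throughout each cell group. Fewer cells of a type and less RNA per cell cannot be told apart in such tissue samples. A gene was called changed at an adjusted p under 0.05 (limma on log2(value + 1), Benjamini-Hochberg over all genes tested), and log2 changes below are on that scale.

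Of the 85 members, 77 were above the floor in all 38 libraries. The 8 others were isoforms of complex IV. Cox8c, a testis isoform, was at 0 in every library. Cox7b2 reached 1.54 units at most and was at or under the floor in every library. Cox8b, Cox6a2 and Cox7a1, isoforms known from heart and skeletal muscle, Cox6b2, known from testis, Cox4i2 and Ndufa4l2 were at or under the floor in 11 to 35 of the 38 libraries, chiefly those of cells. Reads of some members may be shared. A copy of at least 98% identity over at least 75 bases was found elsewhere in the genome for 17 members, and for 9 of them it covered at least 50% of the transcript (Atp5g2, Atp5l, Uqcrb, Cox5b, Uqcr11, Ndufs3, Atp5h, Ndufs5 and Atp5f1). The strand setting of the counting is not given, so reads of members cannot be told apart from those of genes that overlap them on the other strand. Among the members with such an overlap are Sdha, Ndufs1, Ndufa13, Ndufb2, Ndufb5, Atp5f1, Ndufa4l2, Uqcrc2, Uqcrb, Uqcrh, Ndufs3, Ndufb11, Atp5d, Atp5j, Atp5o, Cox6a2 and Cox6c. Others overlap a gene on their own strand. Among these are Cox4i1 (Gm20388), Atp5b (Baz2a and SNORD59 among others), Atp5o (Cryzl1 and Donson among others), Ndufb2 (Adck2), Ndufc2 (Gm16053), Atp5c1 (SNORA17) and Cox7c (snoZ39).

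Together the 81 subunits took about 1 percent of the RNA units of cells without Dox and about 3 percent of normal kidney. In MYC-2983 cells their share of the library was 1.02% ± 0.006 (SD, n = 4) without Dox and 1.36% ± 0.020 with it. In VM-3055 cells it was 1.05% ± 0.045 without and 1.31% ± 0.026 with Dox, and in VIM-3039 cells 0.945% ± 0.006 without and 1.33% ± 0.027 with Dox. In each line the range with Dox lay above that without. The library total in units was itself lower with Dox in each line, so the share rose by more than the summed units. The mean sums were 156300 units without and 189300 with Dox in MYC-2983 cells. In VM-3055 cells they were 142600 and 166400, and in VIM-3039 cells 132700 and 172400.

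In tissue the MYC tumours stood low. Their libraries read 2.04, 1.55 and 1.94%, against 3.44, 2.66 and 2.87% in VM tumours and 3.74, 2.66 and 4.67% in VIM tumours. Normal kidney read 3.22, 2.70, 2.91, 2.51 and 2.66%. The kidneys titled B6 held the 2 highest of these kidney shares, 3.22 and 2.91%. No MYC tumour library reached the lowest of any other tissue group, and VM, VIM and kidney libraries overlapped. A single androgen-regulated kidney gene, Kap, took 1.3 to 6.04% of each kidney library, and without it the kidney share was 2.62 to 3.43%.

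**Figure D1:**
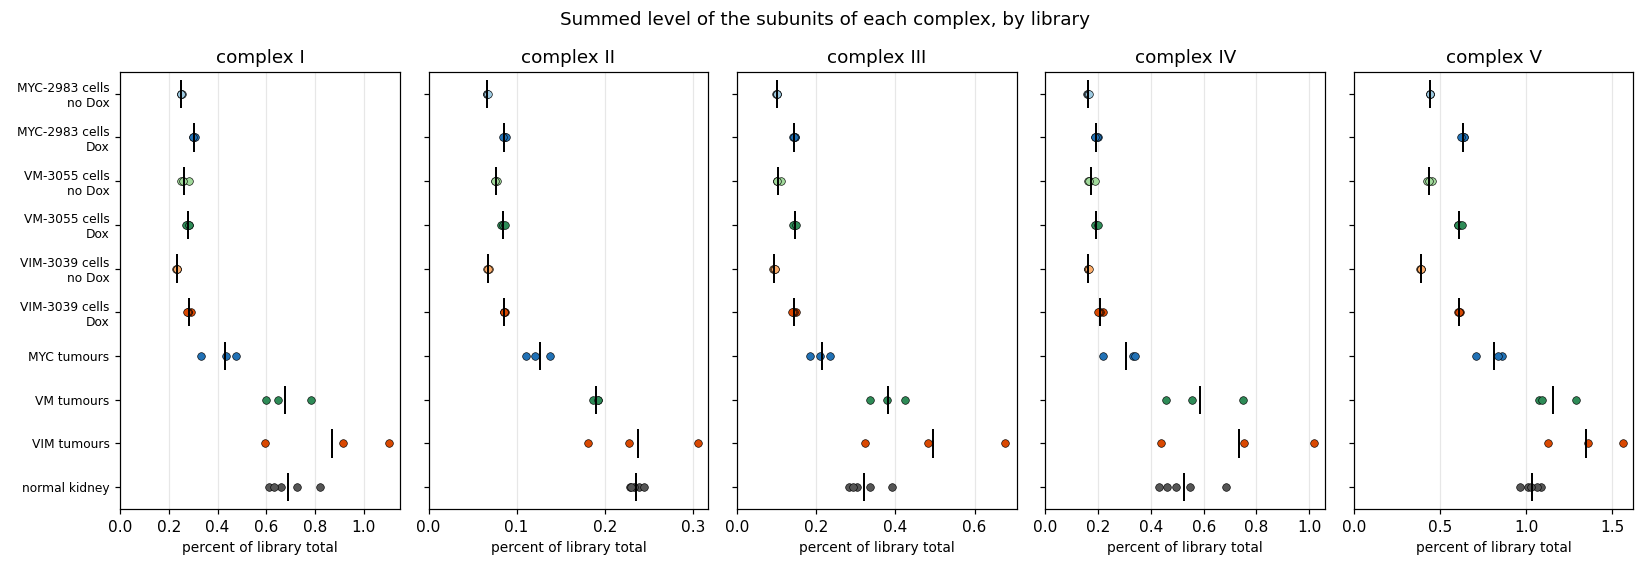
Summed units of the subunits of each complex as a percent of the library total (horizontal axis), 1 point per library and 1 row per group. Short bars are group means, with MYC tumour libraries 2 and 3, from 1 mouse, averaged first. In complexes III and V the Dox libraries of each line lie to the right of the libraries without Dox, and MYC tumours lie to the left of the other tissue groups.

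The make-up of this sum differed between groups. ATP synthase transcripts were the largest part, 41.2 to 43.3% of all subunit units in the 3 lines without Dox and 46.0 to 46.7% with Dox (group means). The complex I part went the other way, from 24.6 to 22.3% in MYC-2983, from 24.9 to 21.1% in VM-3055 and from 24.6 to 21.1% in VIM-3039 cells. In VM-3055 cells the summed complex I units were 35520 ± 1512 without and 35120 ± 873 with Dox (SD, n = 4), while those of complex V were 59370 ± 1317 and 77670 ± 1312. In normal kidney complex V held 36.99% and complex II 8.45%, and complex II held 6.33 to 7.24% in the cell groups and 6.44 to 6.70% in the tumour groups. By group means per kilobase of transcript, Atp5b was the most abundant subunit in all 6 cell groups, in MYC tumours and in normal kidney. This catalytic beta subunit of the synthase stood at 11290 units per kb in VIM-3039 cells without Dox and 20290 in MYC tumours. In VM and VIM tumours the highest mean was that of Cox4i1, a structural subunit of complex IV, at 35530 and 46460 units per kb. The tumour libraries were uneven, so the rank of a mean need not hold in each library. Cox4i1 read 37110, 16160 and 19100 units in VM and 26780, 12910 and 54940 in VIM tumours.

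The comparison of cells with and without Dox asks what induction of MYC does to these transcripts. More subunits rose than fell in each line, complexes III and V most evenly. In MYC-2983 cells 49 of 78 subunits tested rose and 5 fell, in VIM-3039 cells 53 of 74 rose and 9 fell, and in VM-3055 cells 35 of 75 rose and 21 fell. The responses were small: no subunit rose by more than 2-fold, against 4.49, 7.67 and 5.92% of all genes in MYC-2983, VIM-3039 and VM-3055 cells, and Cox7a1, at a low level, was the single subunit to fall by more, against 15, 16.6 and 18.9% of all genes. Across the whole table, calls were frequent, with 75.5% of 15104 genes called in MYC-2983, 75.3% of 13998 in VIM-3039 and 73.8% of 14319 in VM-3055 cells. By direction, 31.5, 31.1 and 26.1% of all genes rose and 44, 44.2 and 47.7% fell, so the share of subunits that rose was above that of all genes in each line and the share that fell below it.

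The deposited scaling places the median of all genes at −0.13 in MYC-2983, −0.15 in VIM-3039 and −0.26 in VM-3055 cells on the log2 scale, and the median subunit lay at 0.21, 0.28 and 0.11. Rescaled by trimmed means (TMM), the all-gene medians were −0.03, −0.03 and −0.06 and the subunit medians 0.33, 0.42 and 0.31. The calls under TMM were 60 up and 1 down, 63 up and 4 down, and 48 up and 6 down. In VM-3055 cells quantile normalization gave 40 up and 14 down. Relative to all genes the subunits were thus placed 0.34, 0.43 and 0.36 higher under the deposited scaling. This excess, over all members, was 0.19, 0.23 and 0.08 with no filter on low values, and under quantile normalization 0.24, 0.31 and 0.16.

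Complex III, which hands electrons from ubiquinol to cytochrome c, had no subunit that fell in any line. All 8 rose in VIM-3039 cells (median log2 change 0.53), 7 of 8 in MYC-2983 (0.40) and 6 of 8 in VM-3055 cells (0.41). Uqcr11, a small structural subunit, read 853, 873, 878 and 946 units in MYC-2983 cells with Dox and 576, 520, 563 and 566 without. The 4 Dox libraries were all above the 4 others, a log2 change of 0.67 (SE 0.041, adjusted p = 2.61e-11). The Rieske iron-sulphur protein Uqcrfs1 rose by 0.39 to 0.55 and the core proteins Uqcrc1 and Uqcrc2 by 0.37 to 0.59 over the 3 lines. The copy of Uqcr11 covers 85.4% of its transcript, so its reads may have been split.

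In complex V, the ATP synthase, 13 of 15 subunits rose and none fell in both MYC-2983 (median 0.26) and VIM-3039 cells (0.32), and in VM-3055 cells 9 rose and 1 fell (0.20). The catalytic beta subunit Atp5b read 31370, 30730, 31130 and 31550 units in VM-3055 cells with Dox and 22520, 22590, 22820 and 22480 without, which do not overlap. Its log2 changes were 0.47 (SE 0.049) in VM-3055, 0.53 (SE 0.032) in VIM-3039 and 0.41 (SE 0.031) in MYC-2983 cells. Its partner Atp5a1 rose by 0.50, 0.72 and 0.49 in the same order.

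The c-ring of the synthase, which turns as protons pass, is built of a single protein made from 3 genes. Atp5g3 supplied 67.5 to 81.6% of the c-ring transcripts per kilobase in every group. In VM-3055 cells it read 6512, 6091, 6284 and 6431 units with Dox and 4001, 4090, 4389 and 4009 without, a log2 rise of 0.62 (SE 0.044, adjusted p = 5.39e-10), with no overlap. It rose by 0.71 in VIM-3039 and by 0.37 in MYC-2983 cells, and Atp5g1 by 0.47, 0.52 and 0.51 in VM-3055, VIM-3039 and MYC-2983 cells. Atp5g2 rose by 0.25 and 0.28 in VM-3055 and VIM-3039 cells, and its change of 0.10 in MYC-2983 cells did not pass (adjusted p = 0.0915). The copies of Atp5g2 cover 100% of its transcript, so its values are uncertain.

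Complex I, the NADH dehydrogenase, had calls in both directions. In VM-3055 cells 14 of its 35 subunits rose and 16 fell (median −0.06), and under TMM 17 rose and 4 fell. Of all genes in that line 26.1% rose and 47.7% fell (median −0.26), so the falls are not particular to complex I. In VIM-3039 cells 21 rose and 6 fell (0.17; 27 and 2 under TMM) and in MYC-2983 cells 18 rose and 3 fell (0.10; 26 and 1). Ndufs7, which carries the last iron-sulphur cluster of the electron path, read 974, 946, 1049 and 921 units in MYC-2983 cells with Dox against 618, 579, 622 and 639 without. All 4 Dox libraries were higher, with a log2 change of 0.66 (SE 0.042, adjusted p = 5.31e-11), and it rose by 0.70 in VIM-3039 and 0.46 in VM-3055 cells. Ndufs1, the largest subunit of the electron-input module, rose by 0.15, 0.45 and 0.45 in VM-3055, VIM-3039 and MYC-2983 cells. Its neighbour Ndufv1, which binds NADH, rose in VIM-3039 (0.17) and MYC-2983 cells (0.21) and read 1473, 1574, 1424 and 1490 against 1500, 1509, 1625 and 1584 units in VM-3055 cells, where the groups overlap.

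Ndufv3, a small accessory subunit of the electron-input module, was the complex I subunit that fell most in every line. In VIM-3039 cells it read 578, 523, 501 and 585 units with Dox and 1009, 1008, 1057 and 1083 without. The 4 Dox libraries lay wholly below, a log2 change of −0.93 (SE 0.050, adjusted p = 2.35e-13). The line VM-3055 had 546, 545, 494 and 522 units with Dox against 926, 938, 989 and 956, and the log2 change there was −0.85 (SE 0.051, adjusted p = 5.15e-11). In MYC-2983 cells it read 626, 643, 648 and 647 against 811, 784, 839 and 841, and the change was −0.35 (SE 0.034, adjusted p = 2.02e-08). Ndufs4, an accessory subunit known from inherited complex I deficiency, read 938, 951, 873 and 913 units in MYC-2983 cells with Dox and 1010, 1037, 1010 and 1040 without, a change of −0.16 (adjusted p = 0.000231) that was −0.05 and not called under TMM.

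The 4 subunits of complex II, succinate dehydrogenase, did not move together, and its 2 membrane anchors went opposite ways. Sdhd rose in each line. It read 3913, 3660, 3756 and 3720 units in VIM-3039 cells with Dox and 2256, 2222, 2158 and 2154 without, a log2 change of 0.78 (SE 0.032, adjusted p = 1.67e-15). In VM-3055 cells it read 3790, 3627, 3896 and 4072 against 2496, 2601, 2511 and 2309 units (0.63, SE 0.048), and in MYC-2983 cells it rose by 0.59. In all 3 lines the Dox libraries lay above the others.

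Sdhc fell in each line under the deposited scaling. It read 1640, 1657, 1653 and 1736 units in VM-3055 cells with Dox against 2168, 2388, 2417 and 2285 without (−0.47, SE 0.045), and changed by −0.27 in VIM-3039 and −0.11 in MYC-2983 cells, the last turning to 0.00 under TMM. The flavoprotein Sdha and the iron-sulphur protein Sdhb rose in VIM-3039 (0.15 and 0.08) and MYC-2983 cells (0.15 and 0.27), and Sdhb in VIM-3039 cells lost its call in 5 of 17 alternative settings (highest adjusted p = 0.0982). In VM-3055 cells Sdha changed by −0.09 (adjusted p = 0.0646) and Sdhb by −0.12 (adjusted p = 0.0192), the latter turning to 0.09 (not called) under TMM.

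In complex IV, cytochrome c oxidase, 8 of 16 subunits rose and 1 fell in MYC-2983, 8 of 12 rose and 2 fell in VIM-3039, and 5 of 13 rose and 2 fell in VM-3055 cells. Cox7c, a small subunit, read 183, 193, 155 and 183 units in VIM-3039 cells with Dox and 137, 91.4, 97.96 and 86.3 without. Its groups do not overlap and the log2 change was 0.81 (SE 0.125, adjusted p = 5.1e-06), and a copy covers 32.9% of its transcript. Cox7b and Cox8a, small subunits of most tissues, were called higher in all 3 lines, by 0.15 to 0.39 and 0.17 to 0.39. In VM-3055 cells Cox7b lost its call in 7 of 17 settings (highest adjusted p = 0.205), and Cox8a lost it there and in MYC-2983 cells with no filter (adjusted p = 0.0734 and 0.0622). Cox4i1 changed by 0.01 (adjusted p = 0.823) in VM-3055 and 0.03 in MYC-2983 cells and rose by 0.23 in VIM-3039 cells. Cox6a1, the ubiquitous form of a regulatory subunit, changed by −0.09 in VIM-3039 and −0.13 in VM-3055 cells, and under TMM both turned, to 0.05 and 0.08, and were not called; the VIM-3039 value kept its call in 6 of 17 settings. The muscle isoform Cox7a1 read 2.65, 4.27, 10.9 and 6.08 units in VM-3055 cells without Dox and 2.22, 0, 0.85 and 0 with it. In VIM-3039 cells it read 8.54, 6.69, 8.16 and 5.81 without and 1.39, 2.77, 1.31 and 3.23 with Dox. Most of the Dox libraries were at or near the floor. Of the 4 members that are not subunits, Cox4nb rose in VM-3055, VIM-3039 and MYC-2983 cells by 0.60, 0.55 and 0.39, and Cox7a2l was called in none.

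**Figure D2:**
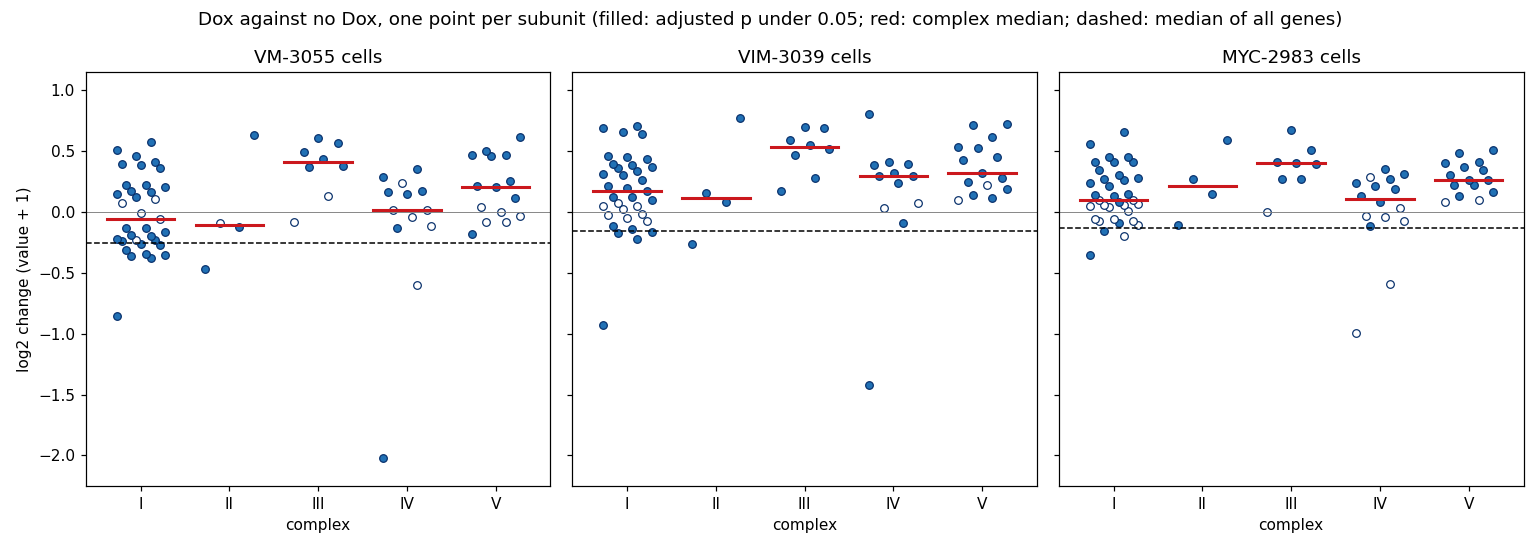
Log2 change of value + 1 with Dox (vertical axis) for each subunit tested, by complex (horizontal axis), in the 3 lines. Filled points passed an adjusted p under 0.05, red bars are medians of a complex and the dashed line is the median of all genes. All 8 complex III subunits are above 0 in VIM-3039 cells, and complex I spreads to both sides of 0 in VM-3055 cells.

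The 3 Dox effects share no libraries. Of the 74 subunits tested in all lines, 33 were called higher in all 3, against 22.5% of 13378 genes. They include all of Atp5a1, Atp5b, Atp5c1, Atp5d, Atp5f1, Atp5g1, Atp5g3 and Atp5o of complex V. Only Ndufv3 and Sdhc were called lower in all 3, against 33.5% of all genes. Across 73 subunits the log2 changes of VM-3055 and VIM-3039 cells correlated at r = 0.893, a description across genes, which are not independent replicates. Over 10745 genes of all kinds the value was 0.889.

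Because many subunits rose together, the 250 bases before their transcription starts were searched. RefSeq promoter entries (GRCm38.p6) were matched for 66 of the 81 subunits. On either strand, CACGTG, the E-box that MYC and its partner MAX are known to bind, was found in 6 of 66 (9.09%), against 6.86% of 27025 genes. These are all genes with a promoter entry, expressed here or not, and were not matched to the subunits in base content. The NRF1 motif, GCGC and TGCGC with any 1 base between them, was found in 13 of 66 (19.7%, against 4.23%) and the ETS motif CCGGAAG in 12 of 66 (18.2%, against 7.83%). NRF1 and ETS factors are known regulators of nuclear genes for respiration. AAGATGGCG, a YY1 motif, was found in 1 (1.52%, against 0.71%) and ACGTG, the core of the hypoxia element, which also lies within CACGTG, in 14 (21.2%, against 18.5%). The E-box genes were 4 of complex V and 2 of complex I. Their promoters follow, to show where the E-box lies, with those of Sdhd and Atp5g2, members the results turn on. Capitals mark any E-box, NRF1 or ETS motif, and a match describes letters and not binding.
Atp5f1, listed by RefSeq as Atp5pb (chr3:105959264-105959513, minus strand): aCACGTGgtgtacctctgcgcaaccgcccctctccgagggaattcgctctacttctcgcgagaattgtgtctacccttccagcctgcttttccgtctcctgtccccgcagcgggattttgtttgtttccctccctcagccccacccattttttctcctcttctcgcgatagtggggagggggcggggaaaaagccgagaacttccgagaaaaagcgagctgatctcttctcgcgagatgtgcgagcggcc
Atp5g1 (chr11:96075632-96075881, minus strand): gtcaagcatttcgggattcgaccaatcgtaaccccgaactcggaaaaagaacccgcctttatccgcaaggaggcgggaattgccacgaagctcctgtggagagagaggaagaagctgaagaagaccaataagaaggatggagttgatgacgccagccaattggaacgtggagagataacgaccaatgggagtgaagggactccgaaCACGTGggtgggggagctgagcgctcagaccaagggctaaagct
Atp5g3 (chr2:73911327-73911576, minus strand): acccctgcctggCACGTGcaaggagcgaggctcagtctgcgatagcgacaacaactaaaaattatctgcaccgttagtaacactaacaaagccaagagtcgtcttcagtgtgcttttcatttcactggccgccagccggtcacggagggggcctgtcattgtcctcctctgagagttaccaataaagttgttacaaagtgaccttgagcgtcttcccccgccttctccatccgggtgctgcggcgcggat
Atp5l (chr9:44920743-44920992, minus strand): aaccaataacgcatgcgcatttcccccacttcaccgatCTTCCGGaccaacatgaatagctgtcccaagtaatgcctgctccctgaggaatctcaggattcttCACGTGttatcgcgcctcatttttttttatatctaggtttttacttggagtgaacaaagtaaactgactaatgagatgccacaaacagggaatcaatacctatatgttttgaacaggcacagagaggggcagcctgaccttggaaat
Ndufa7 (chr17:33824322-33824571, plus strand): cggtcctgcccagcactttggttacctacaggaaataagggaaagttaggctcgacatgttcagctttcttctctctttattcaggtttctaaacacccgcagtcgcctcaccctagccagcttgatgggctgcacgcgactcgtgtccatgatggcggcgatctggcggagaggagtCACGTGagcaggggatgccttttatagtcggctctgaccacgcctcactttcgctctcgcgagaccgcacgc
Ndufv1 (chr19:4012756-4013005, minus strand): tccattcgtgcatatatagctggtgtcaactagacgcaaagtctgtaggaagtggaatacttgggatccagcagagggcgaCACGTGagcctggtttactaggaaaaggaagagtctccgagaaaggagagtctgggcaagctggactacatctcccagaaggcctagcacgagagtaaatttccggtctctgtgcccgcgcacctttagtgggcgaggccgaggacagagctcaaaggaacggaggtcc
Sdhd (chr9:50603850-50604099, minus strand): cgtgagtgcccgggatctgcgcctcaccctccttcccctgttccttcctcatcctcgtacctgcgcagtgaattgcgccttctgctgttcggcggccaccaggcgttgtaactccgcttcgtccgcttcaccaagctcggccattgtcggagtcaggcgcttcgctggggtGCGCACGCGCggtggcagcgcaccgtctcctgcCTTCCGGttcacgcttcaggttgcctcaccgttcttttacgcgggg
Atp5g2 (chr15:102671048-102671297, minus strand): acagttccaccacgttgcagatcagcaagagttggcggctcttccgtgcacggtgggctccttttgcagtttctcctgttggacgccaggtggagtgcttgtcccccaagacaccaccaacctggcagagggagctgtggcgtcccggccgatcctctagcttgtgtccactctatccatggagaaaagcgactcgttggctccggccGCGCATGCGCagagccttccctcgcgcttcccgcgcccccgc

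The 6 genes with an E-box did not share 1 Dox response. Atp5f1, Atp5g1 and Atp5g3 rose in all 3 lines. Atp5l, at 45.2 to 133 units in cells and with a copy over 92.6% of its transcript, was not called in any line, and Ndufv1 rose in 2 of the lines. Ndufa7 changed by −0.12 in VIM-3039 and −0.23 in VM-3055 cells, which were 0.02 and −0.02 under TMM, and by 0.06 in MYC-2983 cells (adjusted p = 0.0874). Sdhd, with NRF1 and ETS motifs and no E-box, rose in all 3.

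Other genes of the organelle were read as lists, to place the subunits. Of 16 genes of the mitochondrial membrane and import, 15 rose and none fell in VM-3055 cells (median log2 change 0.85), 15 rose and 1 fell in VIM-3039 (0.91), and 13 rose and 2 fell in MYC-2983 cells (0.50). The medians of these 16 genes were above those of the 81 subunits in each line. Of 18 regulators of mitochondrial biogenesis, 10, 15 and 13 rose and 2, 0 and 3 fell in VM-3055, VIM-3039 and MYC-2983 cells. Among them Tfam, which packages and transcribes mitochondrial DNA, rose by 1.13, 1.15 and 0.82, and the coactivator Pprc1 by 1.31, 1.29 and 0.72. The coactivator Ppargc1a changed by −1.64, 0.52 and −0.51. Of 13 citrate cycle genes, 10, 11 and 11 rose and 2, 0 and 2 fell. Of 29 assembly factors present in the table, 16, 19 and 19 rose and 3, 5 and 5 fell. Of 11 genes of oxidative phosphorylation that the symbols leave out, 5, 7 and 8 rose and 3, 2 and 2 fell. Among these, Cyc1 of complex III rose by 0.66, 0.88 and 0.59.

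The size of the Dox response differed between lines for some subunits. In the test of the difference between VIM-3039 and VM-3055 cells, 30 of 75 subunits responded more upwards in VIM-3039 cells and none less, while 33.3% of 15180 genes were called, 22.8% upwards and 10.5% downwards. The median difference was 0.20 for subunits and 0.10 for all genes. With the trend of change on transcript length removed, 13 subunits differed upwards and 7 downwards. Cox7c differed by 0.57 (SE 0.194, adjusted p = 0.0284), a call lost in 8 of 25 settings (highest adjusted p = 0.0943). Atp5k, a subunit that holds synthase dimers together, differed by 0.43 (SE 0.087, adjusted p = 0.000542): it read 804, 777, 801 and 868 units with Dox and 894, 957, 1011 and 836 without in VM-3055 cells, and 915, 817, 786 and 776 with and 725, 629, 714 and 706 without in VIM-3039 cells.

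Between the mean of the 2 Vhl-deleted lines and MYC-2983 cells, the Dox response of 10 of 78 subunits differed upwards and of 17 downwards, with 45.5% of 16092 genes called, 19.6% upwards and 25.9% downwards. Under TMM the counts were 26 and 7, so the direction of the split rests on the scaling. Of the genes named here, Atp5g3 (0.29, SE 0.045) and Ndufa4 (0.25, SE 0.059) responded more upwards in the Vhl-deleted lines, and Ndufv3 (−0.54, SE 0.055) and Ndufa6 (−0.32, SE 0.069) less; these 4 keep their sign under TMM.

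With Dox present, the lines were compared with each other, which also compares 3 single tumours. VIM-3039 against VM-3055 cells had 31 of 74 subunits higher and 13 lower, with 67.5% of all genes called, 35.1% higher and 32.4% lower. With the length trend removed 20 subunits were higher and 20 lower. In the comparison of these lines without Dox 11 of the members were higher and 34 lower. The share of all genes called there is not given here, so this count does not set the members apart from other genes. The median of members over all genes was 0.06 with Dox and −0.01 without. With Dox, the largest difference between these lines was that of Ndufc1, an accessory subunit of complex I. It read 230, 224, 224 and 229 units in VIM-3039 cells and 569, 595, 603 and 624 in VM-3055 cells, a log2 difference of −1.39 (SE 0.052, adjusted p = 6.93e-13). It was as low without Dox, at 217, 193, 225 and 227 units in VIM-3039 cells, and in VIM tumours it read 1966, 1115 and 2122 against 2659, 1168 and 1589 units in VM tumours, which overlap. Atp5e, a small subunit of the synthase stalk, differed by −0.59, and Ndufa1 and Ndufv1 by 0.42 and 0.40.

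Against MYC-2983 cells, 15 subunits were higher and 44 lower of 76 in VM-3055 cells (76.6% of all genes called, 26.7% higher and 49.9% lower), and 14 higher and 44 lower of 74 in VIM-3039 cells (76.1% called, 26.4% higher and 49.7% lower). The 2 comparisons share the MYC-2983 libraries. The median of all genes was −0.19 and −0.18 and that of subunits −0.23 and −0.17, and TMM gave 23 up and 32 down, and 25 up and 30 down. With the length trend removed the counts were 29 up and 23 down, and 28 up and 27 down, so the split rests on the processing. Ndufb5, a membrane subunit of complex I, read 1399, 1424, 1477 and 1435 units in MYC-2983 cells, 828, 840, 813 and 821 in VM-3055 cells and 637, 594, 639 and 650 in VIM-3039 cells, and no group overlaps another. Its log2 differences from MYC-2983 cells were −0.80 (SE 0.030) and −1.19 (SE 0.035). Ndufb7 differed by −0.79 in VM-3055 cells. Ndufb2 (0.54 and 0.73) and Ndufs5 (0.52 and 0.81) were higher in VM-3055 and VIM-3039 cells, and a copy covers 64.3% of the Ndufs5 transcript. Of 8 HIF targets that act on respiration, 8 were higher in VIM-3039 and 7 in VM-3055 cells, with medians of 1.58 and 1.74.

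The tumours were compared with normal kidney to see which genotypes keep the level of respiratory transcripts of the tissue. The 3 comparisons share the 5 kidney libraries, and the tumours lack most of the proximal tubule marker RNA given above. The sum of 5 markers of the thick ascending limb and distal tubule was 63840 to 146200 units in kidney and 2.47 to 5090 in tumours, and that of 4 collecting duct markers 5325 to 9424 and 1.33 to 873. The sum of 4 endothelial markers was 2772 to 4649 units in kidney and 188 to 1917 in tumours. The sum of 6 leukocyte markers was 1596 to 2607 units in kidney, 4009 to 17740 in MYC, 2468 to 9378 in VM and 8496 to 16040 in VIM tumours. The markers at 0 throughout a group were Pvalb in MYC tumours, Pvalb, Cldn16, Aqp2 and Atp6v1b1 in VM tumours and Cd3e in VIM tumours, and the part of these cells in the results was not tested. MYC tumours had lower levels in every complex: 70 of 79 subunits were lower and none higher, 51 of them by more than 2-fold, with a median log2 difference of −1.18 against 0.12 for all genes. Of 16491 genes, 51.4% were called, 28% higher, 23.4% lower and 17.7% lower by more than 2-fold. All 35 subunits of complex I, all 4 of complex II and all 8 of complex III were lower, and 12 of 17 in complex IV and 11 of 15 in complex V (medians −1.21, −1.33, −1.16, −1.18 and −0.99). Quantile normalization gave 56 subunits lower and none higher. By complex, from I to V, these were 32, 2, 5, 11 and 6. The complex V median was then −0.36, so how many were lower rests in part on the scaling. In 77 of the 83 members tested the MYC tumours and the kidneys did not overlap, against 50.98% of all genes.

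VM tumours differed less, with 23 of 79 subunits lower and 2 higher (54.7% of all genes called, 25.7% higher and 29% lower), and a median of −0.34 against −0.05. The lower ones were 13 of complex I, 3 of complex II, 2 of complex III, 4 of complex IV and 1 of complex V. The higher ones were Ndufa4l2 and Cox4i2, and Cox4i2 kept its call in 6 of 17 settings. Quantile normalization gave 15 lower and 18 higher, so the split rests on the scaling, and with the trend on transcript length removed 43 were lower. Against the kidneys titled KT alone, 16 members were lower in place of 25, and the median below all genes was −0.09 in place of −0.29. In VIM tumours 6 subunits were lower and 3 higher of 79 (51.7% of all genes called, 25.5% higher and 26.2% lower), with a median of 0.02 against 0.01, and quantile normalization gave 2 lower and 17 higher. The lower ones were Sdha, Sdhc, Ndufs1, Ndufv1, Ndufa13 and Cox6a2, the last with tumour values at or near the floor. The higher ones were Ndufa4l2, Atp5g2 and Uqcr11, the last with overlapping groups (0.97, adjusted p = 0.0387) and no call under TMM. This count rests on single libraries: 13 members were called in all, 26 without VIM tumour library 2, 8 without kidney library 2 and 7 against the kidneys titled KT.

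**Figure D3:**
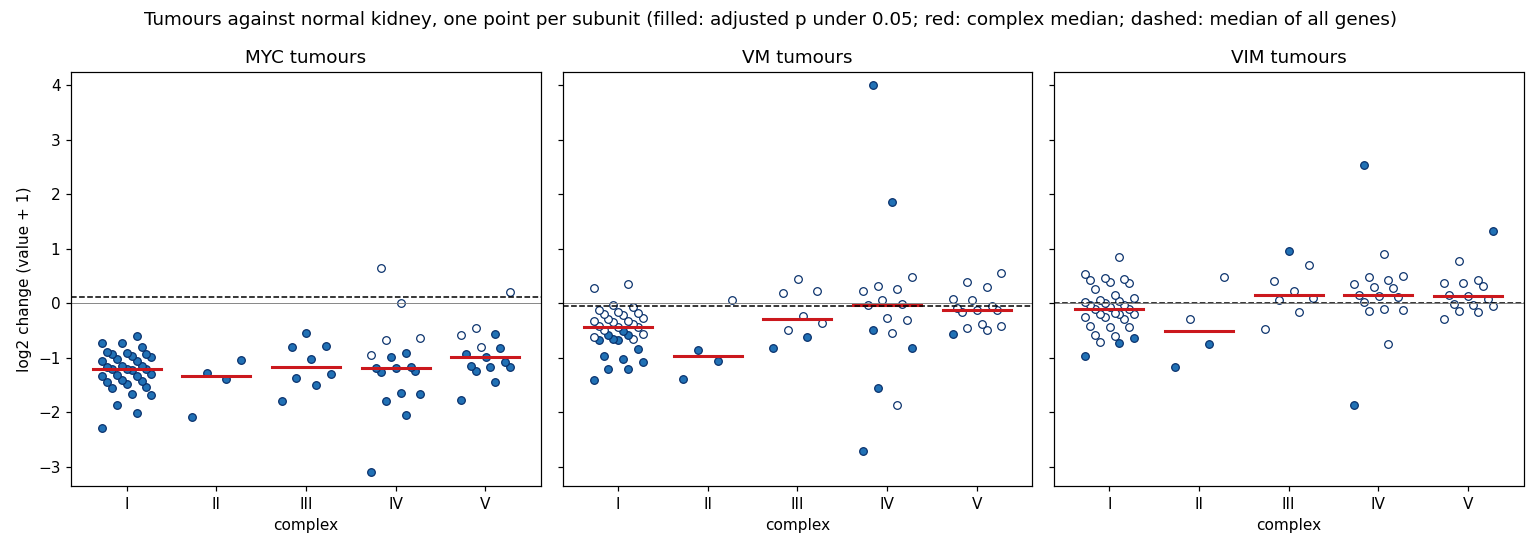
Log2 difference of value + 1 between tumours and normal kidney (vertical axis) for each subunit tested, by complex (horizontal axis), for the 3 tumour genotypes. Filled points passed an adjusted p under 0.05, red bars are medians of a complex and the dashed line is the median of all genes. In MYC tumours the medians of all 5 complexes are near −1, and in VM and VIM tumours the highest point is Ndufa4l2 in complex IV, at 4.01 and 2.54.

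Complex II stood lowest among the complexes in VM (median −0.96) and VIM tumours (−0.51). Sdha, its flavoprotein, read 13410, 17590, 15940, 18080 and 18890 units in kidney, 8371, 5148 and 6210 in MYC tumours, 6802, 7790 and 4867 in VM tumours and 8783, 8194 and 5579 in VIM tumours. Every tumour library was below every kidney library, and the log2 differences were −1.27 (SE 0.234), −1.39 (SE 0.199) and −1.18 (SE 0.212). Under quantile normalization the first and the last lost their call (−0.52, adjusted p = 0.127 and −0.67, adjusted p = 0.0651). Sdhc was also lower in each genotype, with differences of −1.39, −0.86 and −0.74, and in VIM tumours it lost its call in 4 of 17 settings, among them without VIM tumour library 1 (adjusted p = 0.082) or 2 (adjusted p = 0.0684). Sdhb, which carries the iron-sulphur clusters, read 10110, 8495, 10480, 8550 and 8333 units in kidney, 1879, 3580 and 1362 in MYC tumours, 5458, 4269 and 3609 in VM tumours and 7755, 4925 and 11140 in VIM tumours. It was lower in MYC (−2.09, SE 0.178, adjusted p = 6.1e-05) and VM tumours (−1.06), and VIM tumours overlapped with kidney (−0.28, adjusted p = 0.371).

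The other membrane anchor, Sdhd, passed in MYC tumours alone. Its levels were 15880, 10510, 13110, 10120 and 8954 units in kidney, 6118, 4580 and 5544 in MYC, 12690, 9623 and 14240 in VM and 14190, 9327 and 31200 in VIM tumours. The MYC tumours lay below the kidneys (−1.04, SE 0.249, adjusted p = 0.00828; −0.37 and not called under quantile normalization), and VM and VIM tumours overlapped with kidney. The differences of VM and VIM from MYC tumours did not pass (adjusted p = 0.225 and 0.302).

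In complex I, Ndufv1 and Ndufs1 were lower in all 3 genotypes. Ndufv1 read 6938, 6924, 7889, 7127 and 5913 units in kidney, 3491, 2230 and 2955 in MYC, 1877, 3512 and 2727 in VM and 4740, 3937 and 4797 in VIM tumours, with no overlap. The log2 differences were −1.20, −1.40 (SE 0.198, adjusted p = 0.000226) and −0.63. For Ndufs1 they were −1.07, −1.02 and −0.73. The VIM values of both were not called under quantile normalization (adjusted p = 0.12 for Ndufv1 and 0.0994 for Ndufs1). For Ndufa13, an accessory subunit also known as GRIM-19, the differences were −1.48, −0.96 and −0.96. Ndufb4 read 51.3, 24.7 and 65.0 units in MYC tumours and 138 to 433 in kidney (−2.29, SE 0.410), and a copy covers 49.8% of its transcript.

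In complex IV, the paralogs Ndufa4 and Ndufa4l2 moved in opposite directions in VM tumours. Ndufa4, counted here as a subunit of complex IV, read 25310, 14490, 17670, 13320 and 10720 units in kidney, 4632, 2750 and 3390 in MYC, 5567, 4228 and 6343 in VM and 9904, 5279 and 15490 in VIM tumours. It was lower in MYC (−2.05, SE 0.336) and VM tumours (−1.56, SE 0.273, adjusted p = 0.000884), and VIM tumours overlapped with kidney (−0.74, adjusted p = 0.12). Its paralog Ndufa4l2, a known HIF target that lowers complex I activity, read 50.2, 42.3, 41.5, 50.5 and 70.8 units in kidney, 23.3, 443 and 81.9 in MYC, 4945, 239 and 471 in VM and 194, 96.5 and 1388 in VIM tumours. All VM and VIM tumour libraries were above all kidneys, and their log2 differences were 4.01 (SE 0.796, adjusted p = 0.00189) and 2.54 (SE 0.712, adjusted p = 0.0133), while that of MYC tumours was 0.65 (adjusted p = 0.517). The VIM value ranged from 1.43 to 3.35 over the settings and lost its call against the kidneys titled KT (adjusted p = 0.06) and with all 4 tissue groups in 1 fit (adjusted p = 0.0564).

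Ndufa4l2 was at or under the floor in all 24 cell libraries, the Vhl-deleted lines included. Its values in VM-3055 cells were 0 in 7 of 8 libraries and 0.85 units in the other. The gene lies at chr10:126951995-126954208 (mm9, plus strand) and overlaps Shmt2 on the other strand. Cox4i2, the lung and hypoxia isoform of Cox4i1, read 50.6, 5.16 and 40.7 units in VM tumours and 4.02 to 8.65 in kidney, and the groups overlap. Its difference of 1.86 (adjusted p = 0.0435) lost its call in 11 of 17 settings (highest adjusted p = 0.157), among them without VM tumour library 1 (1.295) or 3 (1.45) and without any 1 of the kidneys. Higd1b, 1 of 5 pericyte and smooth muscle markers read, was 51.9 units in VM tumour 1 and 56.9 in VIM tumour 3, and 0.93 to 10.8 in the other tumours. VM tumour 1 and VIM tumour 3 also had the highest Ndufa4l2 levels, and their sums of the 5 markers were 1134 and 1026 units. That sum was higher in MYC tumours 2 and 3 (2574 and 2946), where Ndufa4l2 read 443 and 81.9 units. The sum of 4 endothelial markers was 545.7, 1373 and 187.9 units in MYC tumours 1 to 3. It was 1917, 244.3 and 526.5 in VM and 427.5, 632.8 and 906.8 in VIM tumours 1 to 3. In each genotype the highest endothelial sum was in the library with the highest Ndufa4l2 level. The part of endothelial cells was not tested. The sum of 5 pericyte and smooth muscle markers was 454 to 2946 units in MYC, 238 to 1134 in VM and 435 to 1026 in VIM tumours and 1363 to 3417 in kidney, with none of the 5 at 0 throughout a group, and the part of these cells was not tested. Cox6a2, at 27.7, 36.5, 18.7, 6.52 and 13.9 units in kidney, was 0 to 6.27 in the tumours and called lower in all 3 genotypes. Its tumour values were at or near the floor, which was 2.80 to 5.65 units in tumours, so the size of the difference is uncertain. The call was lost in 2 of 17 settings in VM (highest adjusted p = 0.0707) and in 5 of 17 in VIM tumours (highest adjusted p = 0.112). Cox7a1 was lower in MYC tumours (−1.78, SE 0.279). Cox8b reached 60.7 units in kidney library 5 and 38.6 in VIM tumour 3 and was at 7.06 or less elsewhere.

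**Figure D4:**
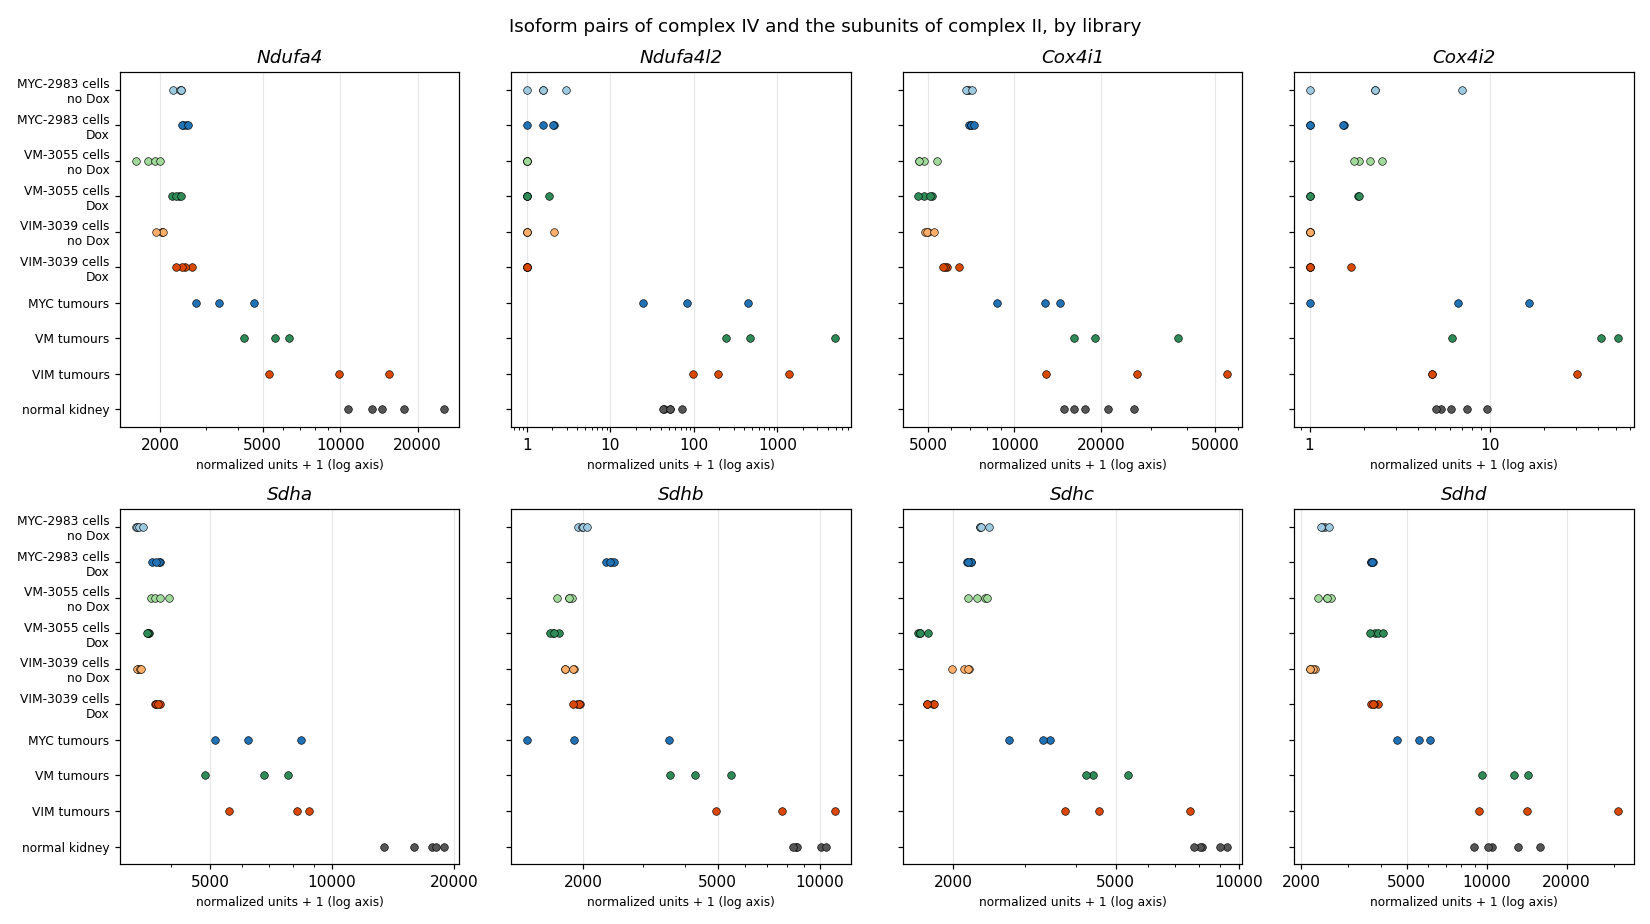
Level of the isoform pairs Ndufa4 and Ndufa4l2, Cox4i1 and Cox4i2, and of the 4 subunits of complex II, as normalized units + 1 on a log axis (horizontal), 1 point per library and 1 row per group. Ndufa4l2 is at or under the floor in all cell libraries and reaches 4945 units in a VM tumour, and Sdha is lower in all 9 tumour libraries than in the 5 kidneys.

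Complexes III and V of the VM and VIM tumours had few calls against kidney under the deposited scaling, which does not show that they were alike. In VM tumours quantile normalization gave 4 higher and 1 lower of 8 in complex III and 7 higher of 15 in complex V. With the length trend removed 5 and 5 were lower. The complex III share was 0.32 to 0.68% in VIM tumours and 0.28 to 0.39% in kidney. In complex III, Uqcrfs1 was lower in MYC (−1.37, SE 0.201) and VM tumours (−0.62, SE 0.176), the latter turning to 0.02 (not called) under quantile normalization. Uqcrc1 was lower in MYC tumours (−0.54), a call kept in 12 of 17 settings, with 0.19 under quantile normalization. Atp5b read 63520 to 75410 units in kidney, 39890, 38020 and 38700 in MYC and 52080, 50400 and 43910 in VM tumours, which do not overlap with kidney, yet neither difference passed (−0.81, adjusted p = 0.0884 and −0.49, adjusted p = 0.129). Atp5a1 did not pass in any genotype. Atp5g2 was the subunit of complex V that was higher in VIM tumours, at 3350, 2214 and 4244 units against 992 to 1592 in kidney (1.32, SE 0.237, adjusted p = 0.00116). Its share of c-ring transcripts was 6.80% in kidney, 15.4% in MYC, 10.4% in VM and 12.3% in VIM tumours, with the limit on its reads given above.

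Of the members that are not subunits, Cox7a2l was higher in all 3 genotypes, by 0.86, 1.34 and 1.72, the MYC call being lost in 4 of 17 settings (highest adjusted p = 0.0771), and it read 1836 to 3453 units in kidney and 3938 to 14660 in the tumours. Atp5s and Atp5sl were lower in all 3, with differences of −0.49 to −0.98, and Cox4nb was higher in VM (0.45) and VIM tumours (0.58). Of the 13 citrate cycle genes 10, 6 and 4 were lower in MYC, VM and VIM tumours and 0, 1 and 2 higher. Of the 16 membrane and import genes 4, 9 and 10 were higher and 3, 3 and 0 lower. Of the 8 HIF targets 2, 6 and 5 were higher and 1, 0 and 0 lower, with medians of 0.21, 1.85 and 1.72.

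Tumour genotypes were then compared with each other. No subunit passed, with lowest adjusted p-values among the members of 0.138 for VM against MYC, 0.217 for VIM against MYC and 0.274 for VIM against VM tumours (limma). Few genes of any kind did, 0%, 0.00616% and 0.249% of those tested. At an unadjusted p under 0.05, 48 of 82, 50 of 83 and 4 of 82 members differed, against 13.8, 14.6 and 11.4% of all genes. VM tumours were higher than MYC tumours in 80 of 82 members (median 0.86 against −0.17 for all genes), VIM tumours in 83 of 83 (1.21 against −0.10), and VIM exceeded VM tumours in 74 of 82 (0.37 against 0.09). The 2 comparisons with MYC tumours share its libraries. VM and MYC tumours did not overlap for 60 of 82 members (22.8% of all genes), nor VIM and MYC tumours for 66 of 83 (25.1%). With all 4 tissue groups in 1 fit, 26 members were called higher in VIM than in MYC tumours. The share of all genes called in that fit is not given here, so this count does not set the members apart from other genes.

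Transcript length moved with these tumour differences. Across 75 members, the difference between VM and MYC tumours had a Spearman correlation with transcript length of −0.452, and across 11401 genes of −0.332, a description over genes of the same libraries. Members under 1000 bases had a median of 0.98 and longer ones of 0.48, against 0.25 and −0.16 for all genes. With the length trend removed, the median excess of members over all genes was 0.65 for VM and 0.75 for VIM against MYC tumours. Genes under 1000 bases took 15.8 to 18.2% of MYC tumour libraries, 19.2 to 23.2% of VM, 18.4 to 29.5% of VIM tumour and 18.5 to 22.9% of kidney libraries without Kap. The part of transcript length in the results was not tested.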

How the data were processed

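RNA of 24 cell and 14 tissue libraries was sequenced by the authors as stranded 75-base pairs and aligned to mm9 with MapSplice. Picard 1.64 gave the alignment profile. Reads were sorted with SAMtools, filtered with UBU and quantified with RSEM on UCSC knownGene. The deposited values are an upper-quartile-scaled signal, in which the upper quartile of expressed genes is 1000. They are not counts, and the share of low values that were whole multiples of 1 read was too low for a count test.

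Members and lists were chosen with earlier results of these data known. Genes above 0 in at least 4 cell or 2 tissue libraries of a comparison were tested with limma 3.58.1 (R 4.3.3) on log2(value + 1), 2 groups a fit, Benjamini-Hochberg adjusted over all genes. MYC tumour libraries 2 and 3 were averaged for these tests. The script was tested on simulated data. Named members were the catalytic subunits and isoform families, the 2 largest rises and falls per comparison (at least 50 units, groups not overlapping), members never above the floor, and the 4 that are not subunits. Others were named after their values were seen, and 1 member that the rule names is not reported here.

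Other settings were a pseudocount of 0.1 or 10, genes kept only above a mean of 10 units or not filtered at all, scaling by TMM, quantile normalization, shared fits, a replicate block, each library left out and, chosen after seeing the data, removal of a length trend (loess span 0.3). Depth was 8.22 to 36.6 M estimated reads, and the floor of 3 reads covers counting error only. Positions and transcript copies came from GENCODE vM1 (mm9). RefSeq promoter entries of Atp5a1, Cox4i1, Cox4i2, Cox4nb, Cox6a2, Cox6c, Cox8c, Ndufa2, Ndufa4l2, Ndufb9, Ndufs1, Sdhc, Uqcrb, Uqcrc2 and Uqcrq were not used here.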

Additional observations from a re-analysis of the deposited data

Results flagged for a closer look

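In 4 of 35 tests of a group's share by complex, 1 library stood apart from the others of its group, and chance gives about 1 in 20. These were complex I in VIM-3039 cells without Dox, library 2 (0.229% of the library), complex II in MYC-2983 cells without Dox, library 4 (0.0672%), complex III in VM-3055 cells without Dox, library 3 (0.112%), and complex IV in VIM-3039 cells without Dox, library 2 (0.161%).

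The Dox response of 31 members differed between VIM-3039 and VM-3055 cells (limma, adjusted p under 0.05), Cox7c by 0.57, a call lost in 8 of 25 settings, and Atp5k by 0.43 on the log2 scale. That of 29 members differed between the Vhl-deleted lines and MYC-2983 cells, with Atp5g3 at 0.29, Ndufa4 at 0.25, Ndufv3 at −0.54 and Ndufa6 at −0.32.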

How the results depend on the processing

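Of 131 single-gene results under 2282 settings in all, 2183 kept their direction and side of the threshold, 93 lost their call and 6 turned. Under TMM, Sdhb (0.09) and Cox6a1 (0.079) in VM-3055 cells, Cox6a1 in VIM-3039 cells (0.051) and Sdhc (0.004) in MYC-2983 cells turned, and under quantile normalization Uqcrc1 in MYC tumours (0.185) and Uqcrfs1 in VM tumours (0.024). The median of members over all genes for VIM-3039 against VM-3055 cells was 0.06 with Dox and −0.01 without. The causes were not tested. Members called against kidney numbered 49 in VM tumours with the length trend removed, and in VIM tumours 22 under quantile normalization, 35 with the length trend removed and 7 against the 3 kidneys with the title prefix KT, whose meaning is not stated. With all 4 tissue groups in 1 fit, which has more residual degrees of freedom, 26 were called for VIM against MYC tumours. Counts of members under other settings are given without the share of all genes called under those settings. With 1 library left out, the Dox effect called 50 to 59 members in VM-3055, 59 to 64 in VIM-3039 and 55 to 59 in MYC-2983 cells, the differences in response 25 to 37 and 22 to 30, the line comparisons 44 to 46, 58 to 65 and 60 to 62, the MYC, VM and VIM tumours against kidney 61 to 73, 22 to 37 and 8 to 26, and each tumour pair 0. The median of VIM over VM tumours, 0.28 above all genes, was 0.01 without VIM tumour library 3 and 0.64 without library 2.

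Same-numbered libraries with and without Dox did not deviate together (correlations −0.20 to −0.03 in VM-3055 and −0.05 to 0.07 in VIM-3039 cells), so the numbers were not taken as pairs. With a replicate block the Dox effect called 49 members in the VM-3055 line and 65 in the VIM-3039 line, the difference in response 31, and VIM-3039 against VM-3055 cells 47. Members at or under the floor of 3 reads could not be compared at this depth.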
